A study of Mus musculus with 6 samples.

Results

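The mTOR kinase and 9 genes that build its complexes or set their activity were followed in LSK cells, the lineage-negative, Sca1-positive and c-Kit-positive fraction of mouse bone marrow that holds hematopoietic stem and progenitor cells. The members were the rows named Mtor, Rptor, Rictor, Mlst8, Akt1s1, Tsc1, Tsc2, Rheb, Eif4ebp1 and Ddit4, which are 10 of the 54532 genes in the deposited table. All 10 had an average of 1 FPKM or more across the 6 libraries, the filter on low values that 11552 genes passed in all. RNA-seq had been made from 3 sets of LSKs of Myh9 fl/fl;Mx1-cre mice (cKO, here Myh9-deficient) and 3 of Myh9 fl/fl;no cre littermates (CTRL, control), all of strain C57BL/6, to ask which genes change when Myh9, the heavy chain of non-muscle myosin IIA, is lost. Both groups carried the floxed Myh9 alleles and both received poly I:C at 5 mg/kg, in 2 doses by the sample descriptions, and 100000 LSKs per set were sorted on day 4 after the first injection. The Mx1 promoter that drives Cre answers to interferon and is not limited to blood cells. Cre was present in the Myh9-deficient mice only, so the presence of Cre and the loss of Myh9 cannot be told apart. The sources used here do not give the number of mice behind each set, so the p-values measure the spread between these samples, which may be technical.

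mTOR is a kinase that joins nutrient, energy and growth factor signals to protein, lipid and nucleotide synthesis and to the restraint of autophagy. It works in mTORC1, whose defining subunit is Raptor (Rptor), and in mTORC2, whose defining subunit is Rictor. The TSC complex (Tsc1 and Tsc2) keeps mTORC1 off by acting on the GTPase Rheb, and in mouse blood stem cells the loss of Tsc1 is known to drive the cells out of quiescence. Activity of the pathway is set largely by phosphorylation, which RNA-seq does not measure.

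Each library held 17571544 to 19894562 reads on genes, and a member had 319 to 2560 reads in a library. Levels are in FPKM, which divide the fragments of a gene by its length and by the library's size. Myh9 itself averaged 22.5 ± 0.495 FPKM in control LSKs and 18.7 ± 1.18 FPKM in Myh9-deficient LSKs (SD, n = 3 each). All 3 Myh9-deficient libraries lay below control (log2 change -0.26, with an adjusted p of 0.00642 by limma). Most of the Myh9 RNA thus remained by this measure, and the name Myh9-deficient follows the genotype. Since 20.6% of all genes tested were called lower, this fall is only a weak check of the labels. The markers of the sorted cells (Kit, Ly6a, Cd34 and 6 others) summed to 219 to 222 FPKM in control and 228 to 238 FPKM in Myh9-deficient libraries, with Mecom under 1 FPKM in each. Markers of other cells moved with the groups. Erythroid markers summed to 419 to 424 FPKM in control and 752 to 777 FPKM in Myh9-deficient LSKs (7 of 7 tested higher), megakaryocyte markers to 56.7 to 60.4 and 125 to 130 FPKM (3 of 3 higher, Gp1bb at 0), and mast cell and basophil markers to 76.5 to 88.8 and 135 to 143 FPKM (5 of 5 higher). Neutrophil markers summed to 6611 to 6672 FPKM in control and 3464 to 3526 FPKM in Myh9-deficient LSKs (5 of 6 lower), and monocyte markers to 403 to 443 and 142 to 160 FPKM (4 of 4 lower). Those of B and plasma cells summed to 134 to 135 and 122 to 130 FPKM (2 higher and 2 lower, Ms4a1 under 1 FPKM), and those of T and NK cells to 366 to 377 and 336 to 339 FPKM (3 higher and 1 lower, Cd3e, Cd4 and Cd8a under 1 FPKM). Immediate early and heat shock genes summed to 781 to 797 FPKM in control and 405 to 425 FPKM in Myh9-deficient LSKs (11 of 12 lower). Their part in the results below was not tested. In these bulk libraries, fewer cells of a type and less RNA per cell cannot be told apart.

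Among the 10 members, Ddit4, Eif4ebp1 and Rheb were higher and Rptor was lower in Myh9-deficient LSKs, and the other 6 did not pass an adjusted p of 0.05. Ddit4 doubled in level, to 1.99 times the control mean, while the other called members changed by 14% to 17% of the control mean. Of all genes tested, 19.9% were called higher and 20.6% lower, and the members' counts of 3 and 1 among 10 lie near this background. The 3 Myh9-deficient libraries lay wholly above control in 3 members and wholly below it in 4, and the groups did not overlap for 54.0% of all genes tested. The median log2 fold change was -0.039 over the members and -0.0096 over all genes tested. At the fold and p thresholds of the study (more than 2-fold and p under 0.05, taken here as unadjusted), no member was called in limma's test, against 2.13% of genes. In that test 5 members had an unadjusted p under 0.05, and voom on the reads recovered from the FPKM put Ddit4 alone past both thresholds, at 1.0005 on the log2 scale.

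**Figure D1:**
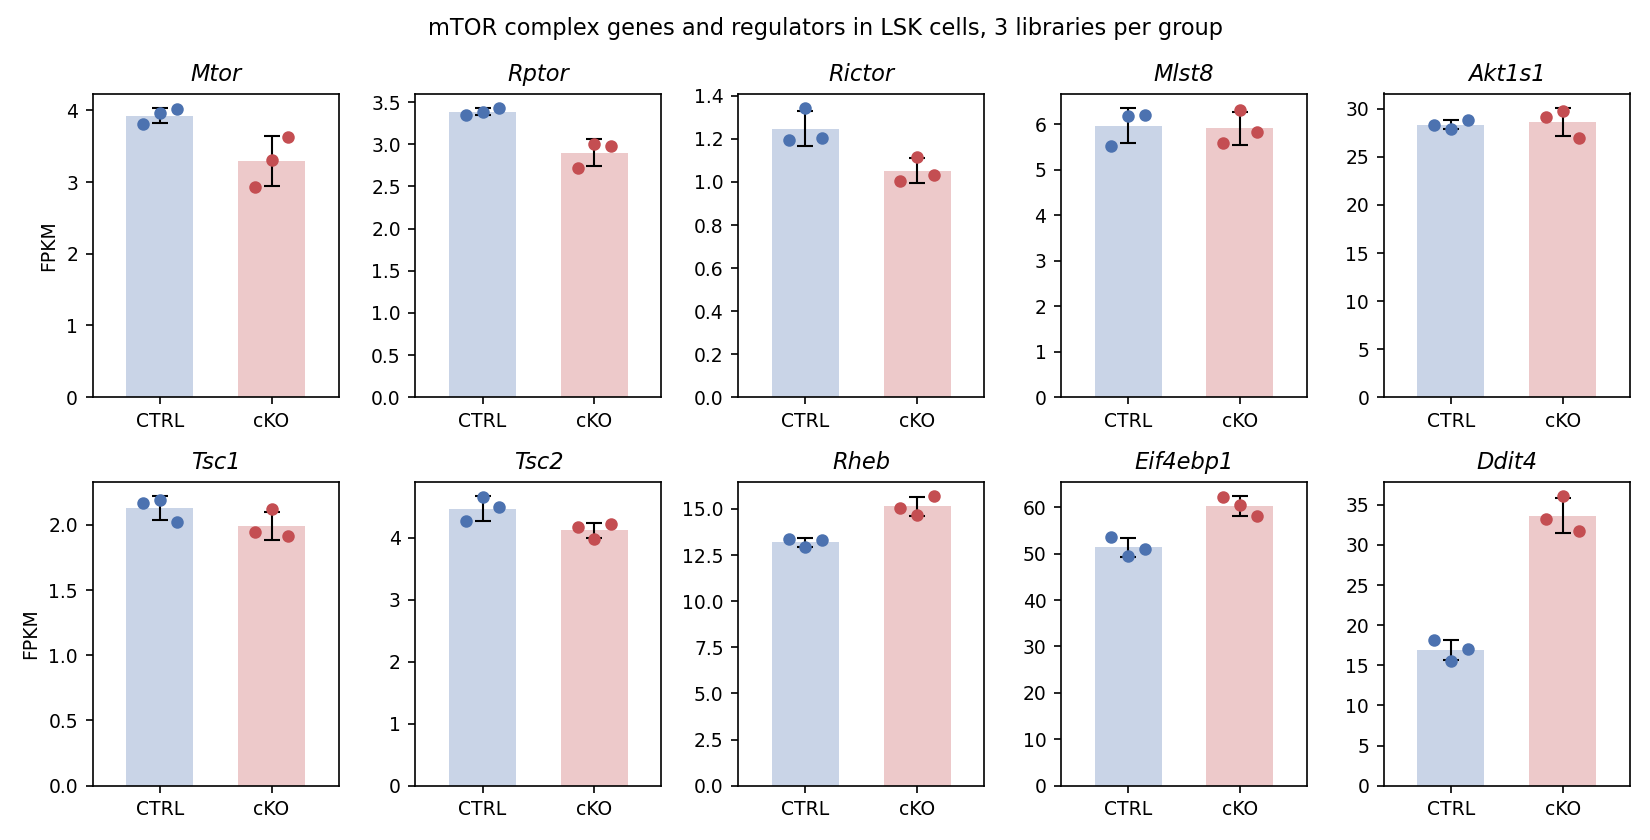
FPKM of the 10 members in control (CTRL, blue) and Myh9-deficient (cKO, red) LSKs, with 1 panel per gene, points for the 3 libraries of each group, bars for the mean and error bars for the SD. The axes start at 0 and differ between panels. Ddit4 goes from 15.6 to 18.1 FPKM in control to 31.8 to 36.0 FPKM, and the other panels show differences of less than 20% of the control mean.

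Ddit4 (ENSMUSG00000020108, chr10:59949669-59951834, minus strand, mm10) encodes REDD1, a short-lived protein that stress signals such as hypoxia, glucocorticoids and nutrient shortage induce and that restrains mTORC1 through the TSC complex. It measured 18.1, 15.6 and 17.0 FPKM in the control libraries and 33.2, 36.0 and 31.8 FPKM in the Myh9-deficient libraries. The lowest Myh9-deficient library stood 13.6 FPKM above the highest control library, the widest such gap among the members in FPKM. The means were 16.9 ± 1.28 and 33.7 ± 2.18 FPKM (SD, n = 3 each), which is 0.95 on the log2 scale (95% confidence interval 0.79 to 1.11) with an adjusted p of 0.000113 in limma's moderated test on log2(FPKM + 1). Each of the 18 alternatives kept this call, with log2 fold changes of 0.88 to 1.00. With 482 to 1153 reads per library, counting error alone gave a coefficient of variation of 4.22% in control and 3.02% in Myh9-deficient LSKs, against 7.57% and 6.47% observed. No other annotated gene overlaps Ddit4.

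Eif4ebp1 (ENSMUSG00000031490, chr8:27260329-27276674, plus strand) encodes 4E-BP1, which binds the cap-binding protein eIF4E and blocks translation until mTORC1 phosphorylates it. The control libraries had 53.6, 49.5 and 50.9 FPKM and the Myh9-deficient libraries 62.2, 60.4 and 58.1 FPKM. The groups did not overlap, with 4.46 FPKM between them. The mean rose by 17.3%, from 51.4 ± 2.07 to 60.2 ± 2.09 FPKM (log2 change 0.23 with a standard error of 0.040, limma adjusted p = 0.00530), and the call held in 18 of 18 alternatives.

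Rheb (ENSMUSG00000028945, chr5:24802823-24842624, minus strand) encodes the GTPase that switches mTORC1 on at the lysosome when the TSC complex is inactive. Its level was 13.4, 12.9 and 13.3 FPKM in control and 15.04, 14.7 and 15.7 FPKM in Myh9-deficient LSKs. Each Myh9-deficient library was above each control library. The mean rose by 14.6%, from 13.2 ± 0.241 to 15.1 ± 0.502 FPKM (log2 change 0.18 with a standard error of 0.037, limma adjusted p = 0.00872), again in 18 of 18 alternatives. How reads shared with near copies of a gene were counted is not given in the sources used here.

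Rptor (ENSMUSG00000025583, chr11:119602905-119899576, plus strand) encodes Raptor, the scaffold that brings substrates to mTORC1. It measured 3.35, 3.38 and 3.43 FPKM in control and 2.72, 3.001 and 2.98 FPKM in Myh9-deficient LSKs. The groups were separate, and the 3 control libraries lay closer together than the Myh9-deficient ones. The mean went from 3.39 ± 0.0417 to 2.90 ± 0.159 FPKM (log2 fold change -0.17, 95% confidence interval -0.30 to -0.041, adjusted p = 0.0446, limma). This call was near the threshold and held in 5 of 17 alternatives. It was lost in each fit without 1 library, with adjusted p of 0.0628 to 0.117 over the 6 such fits, and with the replicate block, at 0.0857.

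Mtor (ENSMUSG00000028991, chr4:148448611-148557683, plus strand), the kinase of both complexes, measured 3.81, 3.96 and 4.02 FPKM in control and 2.93, 3.31 and 3.63 FPKM in Myh9-deficient LSKs. The groups did not overlap, but the Myh9-deficient libraries spread more widely, with a coefficient of variation of 10.6% against 2.69% in control, where counting error alone gives 4.03% and 3.65%. The log2 fold change was -0.20 (95% confidence interval -0.37 to -0.034) and did not pass the adjustment over all genes (adjusted p = 0.0593, limma). Mtor was called in 3 of 17 alternatives. Without cKO replicate 3, the Myh9-deficient library nearest to control, the log2 fold change was -0.26 with an adjusted p of 0.0320. The other 5 fits without a library gave adjusted p of 0.102 to 0.142, with a log2 fold change of -0.14 without cKO replicate 1.

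Rictor (ENSMUSG00000050310, chr15:6708379-6800401, plus strand), the member with the lowest FPKM, measured 1.20, 1.34 and 1.20 FPKM in control and 1.01, 1.12 and 1.03 FPKM in Myh9-deficient LSKs. The groups lay 0.0794 FPKM apart, and the log2 fold change of -0.13 did not pass (adjusted p = 0.204, limma). At these levels the pseudocount of 1 draws the fold change toward 0. With a pseudocount of 0.1 it was -0.23 with an adjusted p of 0.225, and limma voom on the recovered reads gave -0.23 with an adjusted p of 0.0392, the 1 call among 17 alternatives.

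Both subunits of the TSC complex and the other subunits of the mTOR complexes gave no call in any alternative. Tsc2 (tuberin, the GTPase-activating subunit; ENSMUSG00000002496, chr17:24595816-24632630, minus strand) measured 4.26, 4.65 and 4.50 FPKM in control and 4.17, 3.98 and 4.21 FPKM in Myh9-deficient LSKs, with a gap of 0.0485 FPKM between the groups (adjusted p = 0.180, limma). Tsc1 (hamartin, which stabilizes tuberin; ENSMUSG00000026812, chr2:28641228-28691167, plus strand) measured 2.17, 2.19 and 2.03 FPKM in control and 1.94, 2.12 and 1.91 FPKM in Myh9-deficient LSKs, where the groups overlapped (adjusted p = 0.454, limma). The 95% confidence intervals of the log2 fold change ran from -0.21 to 0.026 for Tsc2 and from -0.22 to 0.086 for Tsc1.

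Mlst8 (ENSMUSG00000024142, chr17:24473550-24479078, minus strand), a subunit of both complexes, measured 5.53, 6.19 and 6.21 FPKM in control and 5.599, 6.31 and 5.83 FPKM in Myh9-deficient LSKs. Akt1s1 (ENSMUSG00000011096, chr7:44848991-44855421, plus strand) encodes PRAS40, an mTORC1 subunit that inhibits it until AKT phosphorylates it. It measured 28.3, 27.9 and 28.8 FPKM in control and 29.1, 29.8 and 27.0 FPKM in Myh9-deficient LSKs. In both genes the groups overlapped. The log2 fold change was -0.013 for Mlst8 (95% confidence interval -0.16 to 0.13, adjusted p = 0.886, limma) and 0.014 for Akt1s1 (95% confidence interval -0.087 to 0.11, adjusted p = 0.823, limma), and their signs turned in some alternatives.

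**Figure D2:**
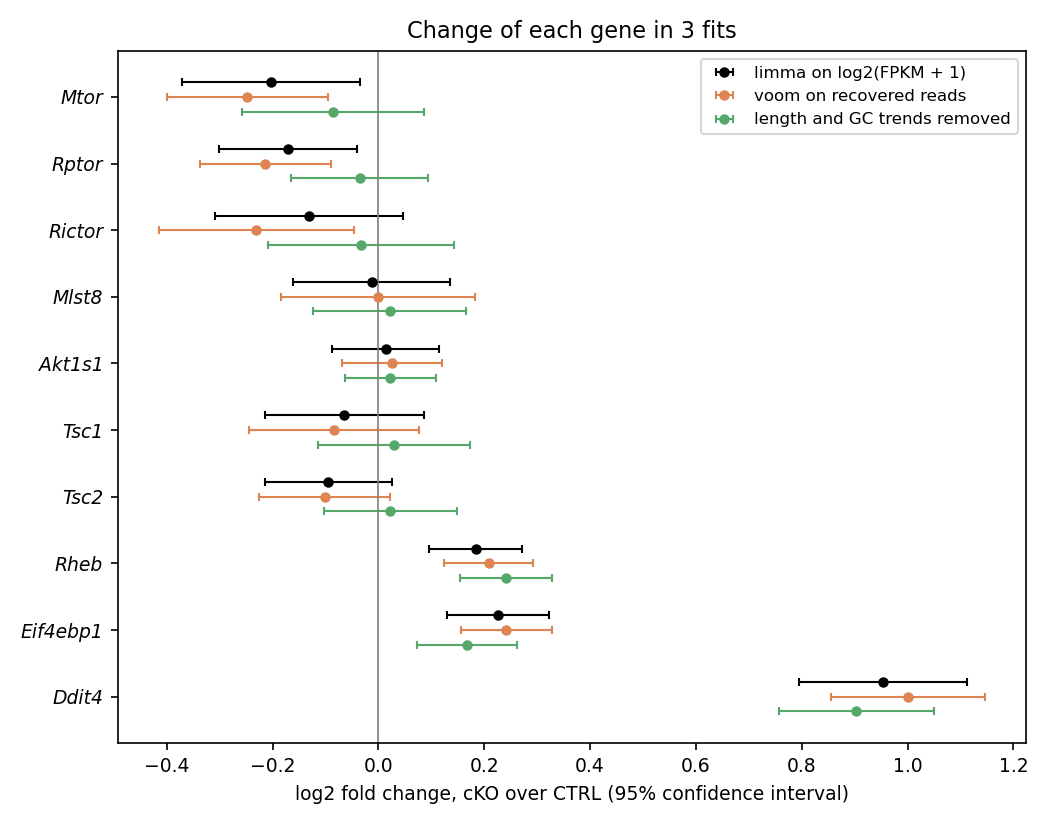
Log2 fold change of each member, Myh9-deficient (cKO) over control (CTRL), with its 95% confidence interval, in limma on log2(FPKM + 1) (black), in limma voom on recovered reads (orange) and after removal of each library's trends with gene length and GC content (green). Ddit4, Eif4ebp1 and Rheb lie above 0 in all 3 fits, while Mtor and Rptor lie below 0 in the first 2 and have intervals that cross 0 in the third.

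The members with negative log2 fold changes were mostly long genes. Over all genes tested, the median log2 fold change went from 0.10 among the 2891 shortest genes (28.0% higher and 9.34% lower) to -0.077 among the 2888 longest (8.80% higher and 28.0% lower). Rictor (16930 bases), Rptor (13471), Tsc1 (11833), Mtor (10109) and Tsc2 (9620) lie among the 855 longest genes tested, of which 27.7% were called lower and 4.44% higher, with a median of -0.097. Once each library's trends with length and GC content were removed, the log2 fold change was -0.036 for Rptor (adjusted p = 0.646, limma), -0.086 for Mtor, -0.033 for Rictor, 0.023 for Tsc2 and 0.030 for Tsc1. Rheb, with 7721 bases, is also among the 2888 longest and had 0.24 after this removal, while Eif4ebp1 (2196 bases) had 0.17 and Ddit4 (1755 bases) 0.90. These 3 remained called.

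**Figure D3:**
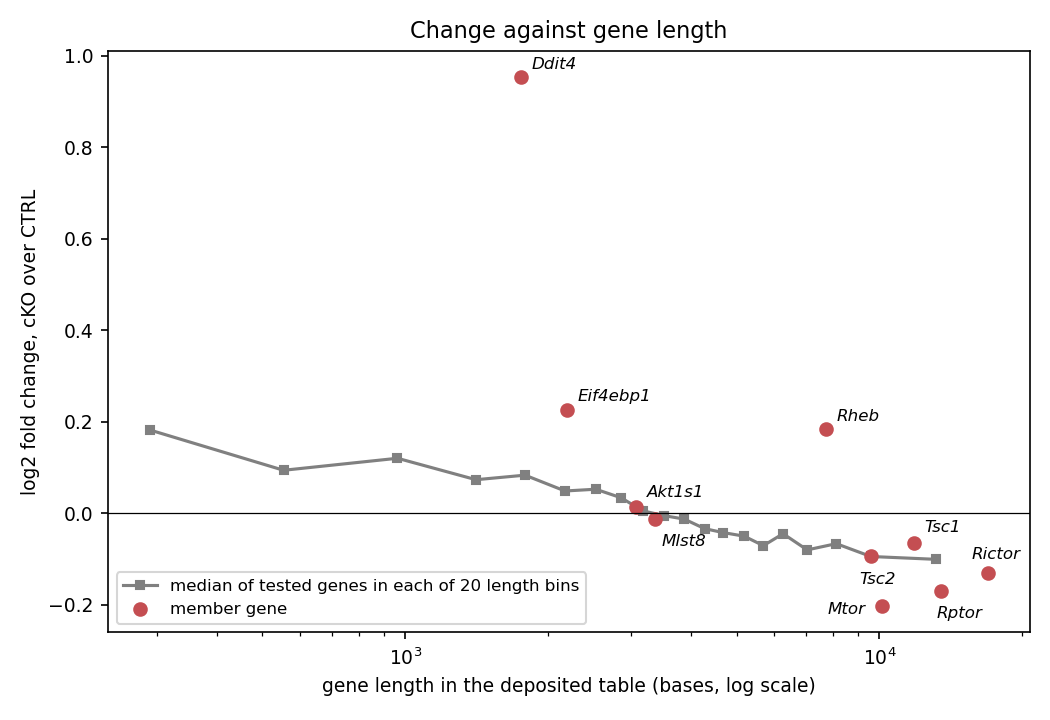
Log2 fold change of the members (red points) against gene length in bases on a log scale, with the median of all tested genes in each of 20 bins of length (grey squares and line). The grey line falls from 0.18 at a median length of 290 bases to -0.10 at 13135 bases. Tsc1, Tsc2, Mlst8 and Akt1s1 lie close to it, and Ddit4, Eif4ebp1 and Rheb lie above it.

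Within each library, FPKM allows levels of different genes to be set side by side per length, taken as the gene length in the deposited table. The order below rests on those lengths, and the overlap of libraries does not measure any error in them. In control LSKs the members ran, from high to low, Eif4ebp1, Akt1s1, Ddit4, Rheb, Mlst8, Tsc2, Mtor, Rptor, Tsc1 and Rictor, and the libraries of neighbours in this order did not overlap. In Myh9-deficient LSKs Ddit4 (31.8 to 36.0 FPKM) stood above Akt1s1 (27.0 to 29.8 FPKM), and Mtor and Rptor were the one pair of neighbours whose libraries overlapped. Eif4ebp1 was above all but 9.78% of tested genes, and Rictor was below 97.4% of them.

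Ratios within a library do not depend on its scaling. Rptor over Rictor was 2.72 ± 0.181 in control and 2.76 ± 0.114 in Myh9-deficient LSKs, and Tsc2 over Tsc1 was 2.10 ± 0.128 and 2.07 ± 0.173 (SD, n = 3 each; exact permutation test, two-sided, p = 0.8 for both). Eif4ebp1 was 2.07 ± 0.129 times its partner Eif4e in control and 1.97 ± 0.121 times in Myh9-deficient LSKs (exact permutation p = 0.2). Against its homologue Eif4ebp2 (4E-BP2), the ratio was 1.74, 1.61 and 1.63 in the control libraries and 2.58, 2.36 and 2.28 in the Myh9-deficient libraries. These did not overlap and differed by 0.54 on the log2 scale, with the smallest exact p that 3 against 3 libraries can give, 0.1 (0.4 when adjusted over the 4 ratios).

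The bases before the transcription start given by RefSeq are shown for the called members, since their RNA levels are what differed. Of the 10 members, 9 were matched in the table of RefSeq promoters used here (GRCm38.p6), all but Eif4ebp1. The stretch of 250 bases was searched on both strands for 8 motifs, and matches are in capitals: CACGTG (E-box), ACGTG (core of the hypoxia response element, also part of the E-box), TGACG (part of a cAMP response element), CCAAT (bound by NF-Y), GGGCGG (GC box), TGATGNAA (composite site bound by ATF4), GTAAACA (FOXO) and AGAACA (part of a glucocorticoid response element). GENCODE places 64 of the 250 bases of Ddit4 and all 250 of Rheb in an exon. The whole Rheb stretch lies inside the gene span given above, so by GENCODE it is not upstream of the gene. Exonic bases are left out of the print, except for a window of 30 bases around the E-box of Rheb. They are kept in the motif search and the GC content.
Ddit4, chr10:59951835-59952020, minus strand, 186 bases: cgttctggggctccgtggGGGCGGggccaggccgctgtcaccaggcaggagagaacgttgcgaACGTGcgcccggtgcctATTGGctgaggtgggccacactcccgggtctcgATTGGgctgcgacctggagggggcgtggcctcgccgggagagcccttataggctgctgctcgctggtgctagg
Rheb, chr5:24842440-24842469, minus strand, 30 bases: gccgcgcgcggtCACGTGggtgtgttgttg
Rptor, chr11:119602655-119602904, plus strand, 250 bases: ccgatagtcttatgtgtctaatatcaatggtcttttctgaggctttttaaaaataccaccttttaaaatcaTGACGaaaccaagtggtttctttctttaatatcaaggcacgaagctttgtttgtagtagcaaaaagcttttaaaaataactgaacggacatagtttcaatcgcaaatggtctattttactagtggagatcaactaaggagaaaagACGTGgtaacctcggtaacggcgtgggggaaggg

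In the 250 bases, G and C made up 70.0% in Ddit4, 68.0% in Rheb and 37.6% in Rptor. ACGTG was found before Ddit4, Rheb and Rptor and before no other of the 9 members searched, which leave out the called member Eif4ebp1. It occurs before 16.6% of the 32851 starts in the RefSeq table. CACGTG was found before Rheb among the 9 members and before 6.02% of all starts. CCAAT stood before 3 of the 9 members, Ddit4 among them (33.9% of all starts), GGGCGG before 5 (32.7%) and TGACG before 3 (17.8%). TGATGNAA, GTAAACA and AGAACA were not in these windows of the 9 members and are before 3.45%, 3.17% and 16.1% of all starts. These are matches of letters and show no binding.

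Of 134 other genes in 6 lists written by hand, here called pathway lists, 119 were tested, and 26 (21.8%) were called higher and 42 (35.3%) were called lower. Their median log2 change was -0.059. The last list holds genes induced by the same signals as Ddit4, which are not genes of the pathway itself. It gave 12 of the tested genes, with 2 called higher and 6 lower. Differences between the lists were not tested, and the shares over all genes tested are the 19.9% higher and 20.6% lower given above. Complex partners and homologues (9 tested) had 2 higher and 1 lower, with a median of 0.087, and the count of 2 was 0 without CTRL replicate 1, CTRL replicate 2 or cKO replicate 3 and 1 without cKO replicate 1. Eif4ebp2, the second brake on eIF4E, measured 30.8, 30.9 and 31.3 FPKM in control and 24.1, 25.6 and 25.4 FPKM in Myh9-deficient LSKs. Its log2 change of -0.30 (limma adjusted p = 0.000744) was opposite in sign to that of Eif4ebp1. Rhebl1, a homologue of Rheb, had 0.30 and Tti2, part of the complex that helps mTOR fold, had 0.32. Both lost their call without CTRL replicate 1, without CTRL replicate 2 and without cKO replicate 3, Rhebl1 also without cKO replicate 1 (adjusted p of 0.0542 to 0.0595 for Tti2 and 0.0679 to 0.0758 for Rhebl1).

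**Figure D4:**
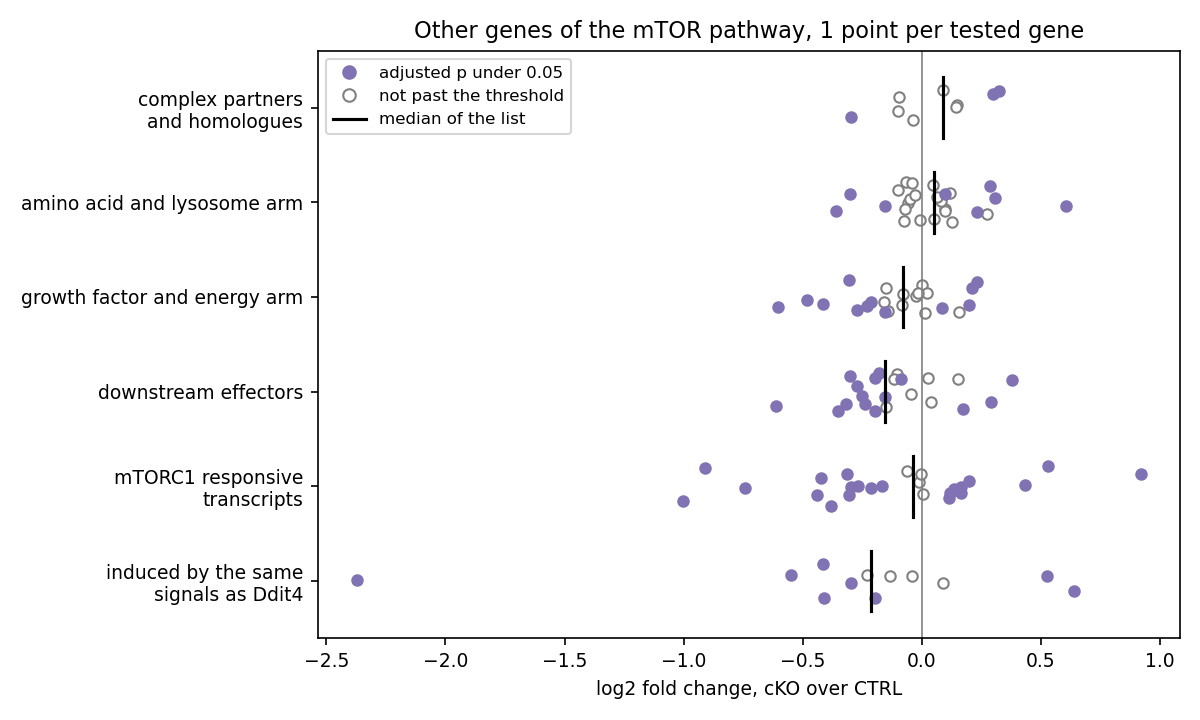
Log2 fold change, Myh9-deficient (cKO) over control (CTRL), of the tested genes of the 6 pathway lists, with 1 point per gene, filled where the adjusted p was under 0.05, and a line at the median of each list (vertical scatter is for legibility). The mTORC1 responsive transcripts lie on both sides of 0 around a median of -0.038, and the downstream effectors have a median of -0.15.

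In the amino acid and lysosome arm, which carries nutrient signals to mTORC1 at the lysosome, 5 of 26 tested genes were higher and 3 lower (median 0.049), with 3 higher without CTRL replicate 3 and 1 lower without cKO replicate 1. The Rag GTPase genes Rragb (log2 fold change 0.31) and Rraga (0.29) rose, as did Lamtor3 (0.23), a subunit of the Ragulator that anchors them. Castor1, an arginine sensor, measured 1.92, 1.51 and 1.59 FPKM in control and 2.37, 3.97 and 2.97 FPKM in Myh9-deficient LSKs (0.60, adjusted p = 0.0167, limma), and lost its call without CTRL replicate 2 and without CTRL replicate 3 (adjusted p = 0.0543 and 0.0516). Fnip1 (-0.36), the partner of folliculin, and Lamtor2 (-0.16) fell, the latter with an adjusted p of 0.0567 to 0.0577 without moderation of the variance and without cKO replicate 1. Depdc5 (-0.30), a subunit of the GATOR1 brake on the Rags, was lower, but its call was lost in 10 of 17 alternatives, among them each fit without a library except that without cKO replicate 3, and removal of the length and GC trends (adjusted p = 0.0963).

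In the growth factor and energy arm, 4 of 24 tested genes were higher and 8 lower (median -0.081). The count of 4 was 1 without CTRL replicate 1 or cKO replicate 2 and 2 without CTRL replicate 2, CTRL replicate 3 or cKO replicate 1, and the count of 8 was 5 without CTRL replicate 1. Pik3cd, the PI3K catalytic subunit p110 delta of blood cells, fell from 30.1, 29.7 and 30.02 FPKM in control to 19.0, 19.4 and 19.6 FPKM in the Myh9-deficient libraries (log2 change -0.61, limma adjusted p = 2.4e-05). Irs2, an adaptor of insulin and IGF receptors, fell by 0.48 and Pik3r5, a regulatory subunit of PI3K gamma, by 0.41 on the log2 scale. The call of Pik3r5 was lost without CTRL replicate 1 and without CTRL replicate 2 (adjusted p up to 0.0599). The AMPK subunits Prkaa1 (0.23), Prkag2 (0.21) and Prkab1 (0.20) and the kinase Akt1 (0.084) were higher. These 4 calls were less firm, and were lost in 2, 7, 8 and 9 of 18 alternatives. Prkaa1 lost its call without CTRL replicate 3, Prkag2 without CTRL replicate 1 or 2 or cKO replicate 2 or 3, Prkab1 without CTRL replicate 1 or any cKO replicate, and Akt1 without any CTRL replicate or cKO replicate 1 or 2 (adjusted p of 0.0503 to 0.207 over their lost calls). With the length and GC trends removed, 4 genes of this arm were higher and 5 lower, with a median of 0.00038.

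Among downstream effectors, 3 of 22 tested genes were higher and 12 lower (median -0.15). The count of 12 was 7 without CTRL replicate 1 and 8 to 10 without any other library. Pdcd4, an inhibitor of the helicase eIF4A that is degraded after S6 kinase phosphorylates it, had 102, 99.4 and 104 FPKM in control and 64.1, 70.5 and 64.4 FPKM in the Myh9-deficient libraries (log2 change -0.61, limma adjusted p = 0.000116). The autophagy genes Ulk2 (-0.35) and Atg13 (-0.32) and the transcription factor Foxo3 (-0.30), which AKT keeps out of the nucleus, also fell. Eif4e (0.29), Eif4a1 (0.17) and Grb10 (0.38), an adaptor that mTORC1 phosphorylates, rose. After removal of the length and GC trends 4 genes were higher and 8 lower, with a median of -0.12.

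Transcripts that answer to mTORC1 went both ways, with 10 of 26 higher and 12 lower (median -0.038). All 9 sterol and fatty acid genes of the list were lower and 7 of its 8 tested amino acid and folate genes were higher, a split of the list made after its values were seen. The desaturase gene Scd2 measured 50.2, 49.3 and 48.2 FPKM in control and 25.04, 26.5 and 25.6 FPKM in Myh9-deficient LSKs (log2 change -0.91), and Insig1 (-0.74) and Hmgcs1 (-0.44) also fell. Asns, which makes asparagine, was at 9.69, 9.46 and 9.68 FPKM in control and 19.4, 19.5 and 18.3 FPKM in Myh9-deficient LSKs (log2 change 0.92), and Psat1, of serine synthesis, had a log2 change of 0.20. Tfrc, the transferrin receptor gene, had 0.53 beside the higher erythroid markers given above, and Ldha, lactate dehydrogenase, had 0.43. The 7 adjusted p ranged from 7.7e-06 for Scd2 to 0.00372 for Psat1 (limma), and the groups of these genes did not overlap.

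Genes that answer to the same stress signals as Ddit4 did not move as one. Of 12 tested, 2 were higher and 6 lower (median -0.21). Tsc22d3 (GILZ), a glucocorticoid target, measured 11.5, 13.3 and 12.7 FPKM in control and 19.7, 19.7 and 20.8 FPKM in the Myh9-deficient libraries (log2 change 0.64), and Per1, a clock gene with glucocorticoid response elements, rose by 0.53 (adjusted p = 0.000273 and 0.000183, limma). Klf9, also induced by glucocorticoids, fell by 0.41. Atf3, induced by the integrated stress response, fell by 2.37 on the log2 scale, from 14.9, 14.3 and 13.3 FPKM in control to 2.21, 1.76 and 1.82 FPKM, and it is also one of the immediate early and heat shock genes, whose sum was lower in each Myh9-deficient library. The p53 target Cdkn1a fell by 0.55 and the hypoxia target Vegfa by 0.42.

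The profiles over the 6 libraries were compared by the root mean square difference of log2(FPKM + 1) after centring each gene on its own mean. The 5 tested genes nearest to Mtor were Zfp281 (0.0215), Srbd1 (0.0218), Cebpg (0.0222), Fbxo11 (0.0224) and Hoxb4 (0.0263), with log2 fold changes of -0.22 to -0.17. Those nearest to Ddit4 were Pex11a (0.0436), Snhg20 (0.0513), Sept1 (0.0524), C1qtnf12 (0.0534) and Acot1 (0.0554), with log2 fold changes of 0.88 to 1.05. The measure keeps the size of a change, so fold changes near those of Mtor and Ddit4 follow from how the genes were chosen.

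Some members share bases with other genes, and whether the reads were counted by strand is not given in the sources used here. Tsc2 and Pkd1 (1.09 to 1.49 FPKM) overlap by 693 bases on opposite strands, and Akt1s1 and Tbc1d17 (3.96 to 5.99 FPKM) by 89 bases. The genes on the opposite strand of Mtor (Angptl7) and Rptor (Rptoros) had at most 0.124 and 0.0857 FPKM.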

How the data were processed

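RNA-seq of 6 LSK libraries (3 CTRL, 3 cKO) was used. The authors deposited FPKM per gene with gene lengths; the submitters' processing notes name HISAT2 2.0.5 and mm10, and the counting program is not given in the sources used here. Of 54532 identifiers, 54495 are in GENCODE M21, 53585 with the same start and end. FPKM times gene length gave whole reads (tolerance 0.05) and hence depth, and precision covers counting error only. Genes averaging 1 FPKM or more were tested on log2(FPKM + 1) by limma 3.58.1 in R 4.3.3 (lmFit, then eBayes with its trend option). Two-sided p-values received Benjamini-Hochberg adjustment across every gene tested. The scripts were tested on simulated data. This scale understates changes of low genes. Ratios were compared by exact permutation (scipy 1.17.1, Python 3.11.15). Named genes were the members, Myh9, at most 4 called genes a direction from each pathway list, and the 5 nearest profiles of Mtor and Ddit4. A few genes of these lists are not reported here by name. Members, lists and tests were chosen with earlier results of these data known. Alternatives varied pseudocount, filter, scaling, moderation, replicate block, libraries, thresholds, length and GC trends, and the model (voom on recovered reads). Removal of the length trend alone was chosen after seeing the data.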

Additional observations from a re-analysis of the deposited data

How the results depend on the processing

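Of the members, Ddit4, Eif4ebp1 and Rheb were called in every alternative other than the study's fold and p thresholds (a change above 2-fold with p below 0.05, taken as unadjusted), where 0 members were higher and 0 lower, 0 other pathway genes were higher and 2 lower, and 165 genes in all were higher and 81 lower. The count of 1 lower member was 0 without a filter, with a mean of at least 5 FPKM (which leaves out Rptor), with the median of ratios, quantile normalization, the replicate block, and removal of the length trend or of both the length and GC trends. It was 2 with the same sum in each library, 3 with voom, and 0 to 1 when 1 library was left out. The replicate numbers did not pair the samples (correlations of deviations -0.0046 to -0.026), and with the replicate block 2063 genes were higher and 2044 lower, 3 members higher and 0 lower. The sign turned for members and ratios near 0. Mlst8 had 0.00013 with quantile normalization, 0.021 with the length and GC trends removed and -0.060 to 0.020 without 1 library. Akt1s1 had -0.0041 with quantile normalization, -0.0071 with the same sum and -0.015 to 0.054 without 1 library. Tsc1 had 0.030 and 0.037 with both trends or the length trend removed, and Tsc2 had 0.023 with both. The log2 difference of Rptor over Rictor ran from -0.035 to 0.056 and that of Tsc2 over Tsc1 from -0.068 to 0.050 without 1 library. The causes were not tested. Of the 39 pathway genes that the naming rule selects, 29 were called in every alternative fit. With 3 libraries a group and 319 to 2560 reads per member, the confidence intervals of the uncalled members still hold log2 changes of about 0.1 or more in size.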
